A study of Homo sapiens with 6 samples.

Results

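The genes described here encode the endosomal sorting complexes required for transport (ESCRT) and the vacuolar protein sorting (VPS) complexes, among them the retromer and the homotypic fusion and protein sorting complex (HOPS). They were chosen by symbol: every CHMP gene and every VPS gene named by a number and at most 1 letter, together with TSG101, HGS, STAM, STAM2, PDCD6IP, MVB12A, MVB12B and SNF8. The gene table held 52 such genes, of which 49 had a probe set that named them alone, among 19775 genes with such a probe set on the array. In all, 48 of them were tested among 14269 genes. VPS37D, a subunit of ESCRT-I, was too dim to be tested, with a mean signal of 5.09 against a limit of 17.3, and CHMP3, CHMP4A and PDCD6IP were not analysed here. The treated group comprised 3 cultures of LNCaP cells given 100 nM dihydrotestosterone (DHT), a potent natural androgen, for 48 h. The control group comprised 3 cultures of the same cells, and the labels do not say whether they were given a vehicle. All 6 cultures were kept for 3 days beforehand, in RPMI that lacked phenol red and carried a charcoal/dextran supplement. LNCaP is 1 established line, derived from a lymph node metastasis of a human prostate cancer, so that the results describe that line only.

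ESCRT complexes sort ubiquitinated membrane proteins, such as growth factor receptors, into vesicles that bud into the endosome and are then degraded in the lysosome. ESCRT-0 gathers the cargo, ESCRT-I and ESCRT-II shape the bud, ESCRT-III filaments cut its neck, and the VPS4 ATPases take the filaments apart; the same filaments also close the last bridge between dividing cells. Retromer retrieves receptors from endosomes before they reach the lysosome, whereas HOPS tethers late endosomes and autophagosomes to lysosomes so that they fuse.

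One array of 54675 probe sets was hybridised for each culture, and its signals were already scaled, with a trimmed mean of 100.03 on every array and medians between 25.7 and 30.1. Over all probe sets, whose values are not independent, arrays correlated at 0.972 to 0.979 within a group and at 0.963 to 0.971 between the groups. All 7 tested markers of luminal prostate cells lay well above the limit. Of these KLK3, which encodes prostate-specific antigen, averaged 8985 ± 441 with DHT and 2186 ± 261 in the controls (SD, n = 3 each), and KLK2 was also called higher, while HOXB13 (-0.37; limma adjusted p = 0.0210) and KRT8 (-0.43; limma adjusted p = 0.00569) were called lower. The basal keratins KRT5 and KRT14 stayed below the limit, with mean signals of 12.0 and 7.69. Of 3 tested mesenchymal markers COL1A1 was lower, with a mean of 132 with DHT and 198 in the controls (limma adjusted p = 0.0184), whereas VIM had 259 with DHT and 205 in the controls (adjusted p = 0.0926) and COL1A2 overlapped. Of the blood markers PTPRC stayed below the limit at 7.53, and the T cell marker CD3E was dim, with 14.4 with DHT and 33.8 in the controls (adjusted p = 0.0630). The part of these markers in the differences below was not tested. The 3' to 5' signal ratio of ACTB, a measure of RNA integrity and labelling, was 1.77 ± 0.07 with DHT and 1.37 ± 0.05 in the controls (SD, n = 3 each; two-sided exact permutation p = 0.1, the smallest that 3 against 3 arrays can give). For GAPDH the ratio was 1.06 ± 0.05 with DHT and 0.90 ± 0.04 in the controls (SD, n = 3 each, two-sided exact permutation p = 0.1). The part of these ratios in the differences below was not tested. The labels call the cultures biological replicates without saying whether they were grown separately, so the p-values measure only how these 3 samples a group differ, which may be technical. In such bulk RNA, fewer cells expressing a gene and less RNA per cell cannot be told apart.

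After exposure to DHT 5 of these genes passed the test, and all 5 were lower and belonged to ESCRT. They were HGS and STAM2 of ESCRT-0, MVB12A of ESCRT-I and CHMP1A and CHMP2A of ESCRT-III, with signals at 61.4% to 77.6% of the control mean. A gene was called at a Benjamini-Hochberg adjusted p of 0.05 in limma, over all tested genes, on log2(signal + 16). Of the 48 members, 5 were called lower (10.4%), against 5.99% of all tested genes, and 0 were called higher, against 6.97% of all tested genes; at an unadjusted p under 0.05 limma gave 9 lower (18.8%) and 3 higher (6.25%), against 12.2% and 13.8% of all tested genes. In either direction 10.4% of the members and 13% of all tested genes were called, so the share of called members as a whole lay near the background. Within ESCRT 5 of 24 tested genes were called (20.8%), and of the 24 tested members outside ESCRT 0 were called, where an unadjusted p under 0.05 gave 2 lower and 2 higher (8.33% each). Of the members, 36 had a log2 fold change under 0.25 in size (75%, against 63.8% of all tested genes) and 3 exceeded 0.5 (6.25%, against 10.5%). The 3 DHT arrays lay below all 3 control arrays for 9 members, against 14.1% of all tested genes, and above them for 4, against 16.9%. When limma's variance was fitted with no intensity trend, none of the 5 passed (adjusted p = 0.055 to 0.161), when 2.05% of all genes were called lower.

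**Figure D1:**
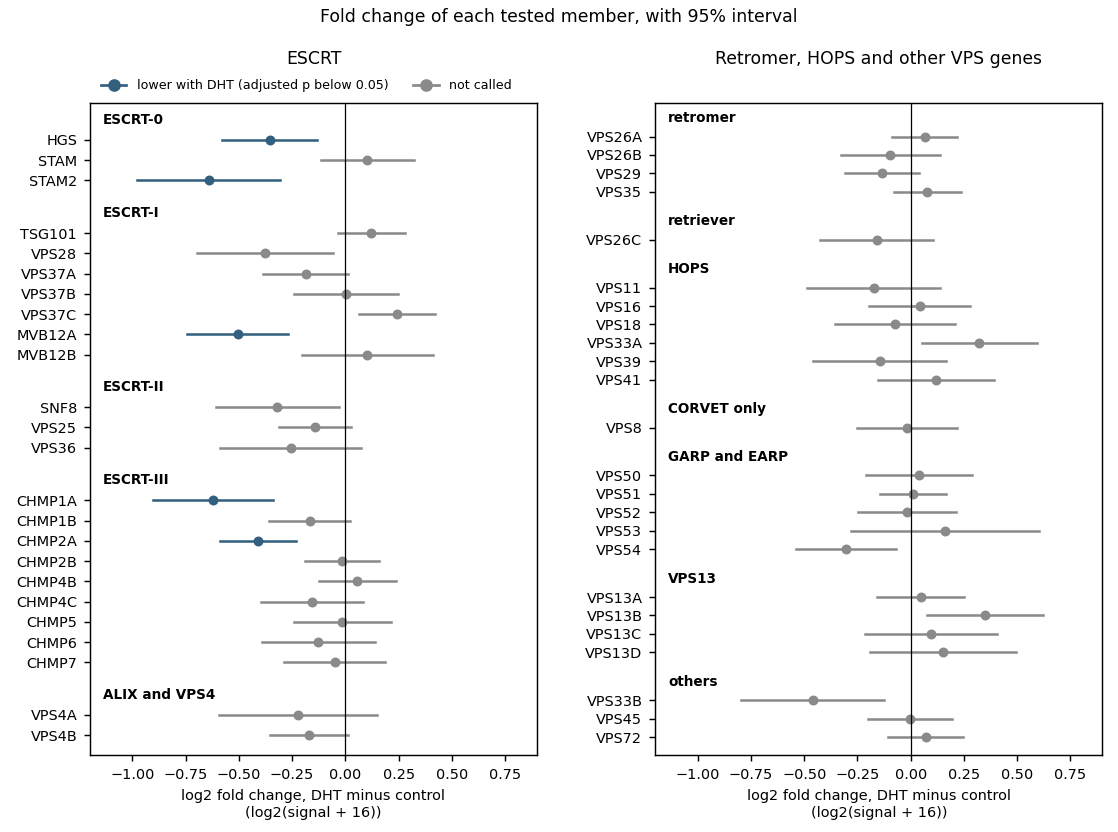
Points give the log2 fold change (DHT minus control, on log2(signal + 16)) of each of the 48 tested members and bars its 95% interval from limma, by complex. Members called lower, all in ESCRT, are blue and the others grey; the 4 retromer intervals stay within 0.33 of 0.

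In ESCRT-0, HGS and STAM2 fell while STAM did not pass. HGS (probe set 210428_s_at), the scaffold that binds ubiquitinated cargo and endosomal lipid, had signals of 439, 364 and 353 on the DHT arrays, against 448, 525 and 516 on the control arrays. The groups did not overlap, although the highest DHT array and the lowest control array lay close together, and the log2 fold change was -0.36 ± 0.10 (SE; limma adjusted p = 0.0396). A second, dimmer HGS probe set (232627_at) had 44.9, 46.0 and 44.9 with DHT, against 71.7, 77.9 and 60.3 in the controls (-0.48; adjusted p = 0.0728 over probe sets). STAM2 (209649_at), a partner of HGS that also binds ubiquitin, had 89.6, 126 and 77.9 with DHT, against 162, 144 and 171 in the controls. All DHT arrays were below all controls, at -0.64 ± 0.15 (adjusted p = 0.0183). STAM (203544_s_at), its close relative, had 268, 236 and 284 with DHT, against 237, 230 and 263 in the controls. These groups overlapped, and the interval of the fold change ran from -0.11 to 0.32. HGS did not pass when DHT replicate 2 or 3 or control replicate 2 or 3 was left out (adjusted p = 0.124 to 0.134), when dim probe sets were kept (adjusted p = 0.0646) or with equal array medians (adjusted p = 0.0503). STAM2 did not pass without DHT replicate 1 or 3 or control replicate 1 or 3 (adjusted p = 0.0547 to 0.0726), nor when its probe sets were averaged (-0.17; adjusted p = 0.414).

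Among 7 tested genes of ESCRT-I, MVB12A was the one called. MVB12A (227864_s_at), which stabilises the complex and can bind ubiquitin, had 126, 154 and 132 with DHT, against 205, 190 and 210 in the controls. The groups were well apart, at -0.51 ± 0.11 (adjusted p = 0.0106). MVB12B (52975_at), the paralog of MVB12A, had 90.3, 113 and 125 with DHT, against 94.3, 94.3 and 113 in the controls, and overlapped. Other tested probe sets of MVB12B gave -0.34 (221687_s_at), -0.34 (222241_at) and 0.01 (1554065_at), and none was called. TSG101 (201758_at), the subunit that recognises cargo and viral late domains, had 911, 952 and 895 with DHT, against 858, 873 and 799 in the controls. Its DHT arrays were all above the controls, but the difference was small, with a log2 fold change of 0.12 (interval -0.04 to 0.28; adjusted p = 0.319). VPS28, another core subunit, had 382, 586 and 470 with DHT, against 726, 615 and 530 in the controls, with overlap (-0.38; adjusted p = 0.121, and 0.0384 without DHT replicate 2). The VPS37 subunits are alternative members of the complex, and the 3 tested had fold changes on both sides of 0. VPS37A had -0.19 and VPS37B 0.00, and VPS37C had 0.24 with all DHT arrays above the controls (adjusted p = 0.0778, and 0.0444 with quantile normalisation). Other probe sets of VPS37C lay below 0, at -0.13 (219053_s_at, all DHT arrays below the controls) and -0.36 (1560059_at), and averaging the 3 gave -0.085 (adjusted p = 0.508).

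In ESCRT-II, whose subunits bridge ESCRT-I to the filaments, all 3 tested genes had fold changes below 0 and none passed in limma. SNF8 had 314, 291 and 263 with DHT, against 444, 294 and 370 in the controls, which overlapped at control replicate 2 (-0.32; adjusted p = 0.149, and 0.0303 without that array). VPS25 had -0.14 and VPS36 had -0.26, both with overlapping groups. At an unadjusted p under 0.05 limma gave 1 of the 3, SNF8, as lower and 0 as higher, against 12.2% and 13.8% of all tested genes.

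Of 9 tested ESCRT-III genes, CHMP1A and CHMP2A fell. CHMP1A (201933_at), a late-acting subunit that helps to recruit VPS4, had 164, 177 and 176 with DHT, against 340, 228 and 264 in the controls. Its DHT arrays were tightly grouped at 172 ± 6.89 and the controls spread at 277 ± 57.1 (SD, n = 3 each), with a log2 fold change of -0.62 ± 0.13 (adjusted p = 0.00911). CHMP2A (202121_s_at), a filament subunit that also binds VPS4, had 812, 959 and 830 with DHT, against 1215, 1133 and 1116 in the controls. No DHT array reached a control array, at -0.41 ± 0.08 (adjusted p = 0.00739, the smallest among the members). The other 7 ranged from -0.17 for CHMP1B to 0.06 for CHMP4B, the main filament-forming subunit, and their groups overlapped. A dimmer CHMP4B probe set (225119_at), described below, had -1.13 and was called lower (limma adjusted p = 0.00086 over probe sets). CHMP2B, the paralog of CHMP2A, had 324, 336 and 347 with DHT, against 345, 340 and 334 in the controls, and its interval ran from -0.19 to 0.16. At its other probe sets CHMP2B gave -0.23 (202537_s_at, all DHT arrays below the controls) and -0.24 (202538_s_at, with overlap), neither of which was called. The ATPase genes VPS4A (-0.22) and VPS4B (-0.17) did not pass (adjusted p = 0.452 and 0.230). VPS4B had 353, 317 and 350 with DHT, against 366, 399 and 386 in the controls, without overlap. CHMP1A, CHMP2A and MVB12A kept their calls under 17 of 18 other settings, the exception being limma without the intensity trend.

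**Figure D2:**
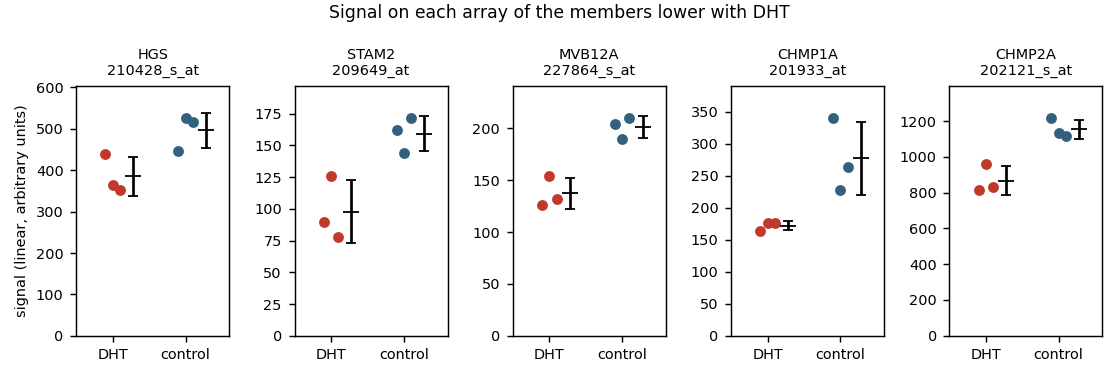
Linear signal on each of the 3 DHT (red) and 3 control (blue) arrays for the 5 members called lower, with mean and SD as black bars; every axis starts at 0. No DHT point reaches a control point in any panel, and for HGS the nearest 2 are 439 and 448.

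The promoters of these 5 genes are shown because these are the members that passed the test. Each is a window of 300 bases around a start site from RefSeq (GRCh38.p14), read 5′ to 3′ on the strand of the gene, and the capitals mark CGGAAG or its reverse complement CTTCCG, the core that ETS factors can bind. For MVB12A the window of 1 of 2 listed start sites is shown, and the other (50.0% G and C) held no match.
HGS, chr17:81683761-81684060, strand plus: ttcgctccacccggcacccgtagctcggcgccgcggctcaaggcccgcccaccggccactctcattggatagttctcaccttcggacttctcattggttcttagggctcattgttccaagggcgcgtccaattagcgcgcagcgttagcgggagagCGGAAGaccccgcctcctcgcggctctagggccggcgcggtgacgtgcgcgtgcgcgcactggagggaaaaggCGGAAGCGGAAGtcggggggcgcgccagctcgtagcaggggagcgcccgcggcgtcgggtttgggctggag
STAM2, chr2:152175714-152176013, strand minus: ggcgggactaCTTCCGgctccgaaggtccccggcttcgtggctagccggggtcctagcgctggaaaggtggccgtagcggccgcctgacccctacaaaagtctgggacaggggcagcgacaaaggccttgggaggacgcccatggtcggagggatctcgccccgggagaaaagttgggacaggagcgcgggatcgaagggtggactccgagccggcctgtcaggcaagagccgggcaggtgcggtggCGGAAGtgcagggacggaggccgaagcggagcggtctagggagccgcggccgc
MVB12A, chr19:17419797-17420096, strand plus: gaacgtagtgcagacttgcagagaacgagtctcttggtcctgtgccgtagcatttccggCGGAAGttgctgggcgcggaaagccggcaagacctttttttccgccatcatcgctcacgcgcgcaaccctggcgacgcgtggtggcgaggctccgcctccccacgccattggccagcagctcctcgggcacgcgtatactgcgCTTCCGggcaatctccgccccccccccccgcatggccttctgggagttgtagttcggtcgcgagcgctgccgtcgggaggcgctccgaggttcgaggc
CHMP1A, chr16:89657659-89657958, strand minus: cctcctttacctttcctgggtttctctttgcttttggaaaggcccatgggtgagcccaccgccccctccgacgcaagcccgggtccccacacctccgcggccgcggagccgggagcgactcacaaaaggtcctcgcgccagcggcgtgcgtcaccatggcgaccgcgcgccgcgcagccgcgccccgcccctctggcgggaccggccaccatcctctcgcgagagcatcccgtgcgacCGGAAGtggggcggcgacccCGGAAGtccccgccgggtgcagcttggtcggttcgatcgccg
CHMP2A, chr19:58555056-58555355, strand minus: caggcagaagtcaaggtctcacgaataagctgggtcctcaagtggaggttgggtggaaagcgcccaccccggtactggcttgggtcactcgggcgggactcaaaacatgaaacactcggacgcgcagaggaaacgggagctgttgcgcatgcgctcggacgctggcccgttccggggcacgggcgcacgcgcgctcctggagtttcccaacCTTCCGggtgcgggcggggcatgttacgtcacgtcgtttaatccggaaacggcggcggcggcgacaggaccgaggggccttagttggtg

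The windows shown were 64.3% to 71.7% G and C. They held no E-box CACGTG, no CLEAR element of lysosomal genes, which contains CACGTG, and no full palindromic androgen response element; both strands were searched. No window of any member held either element, which matched 0.621% and 0% of windows of tested genes. CACGTG was present in windows of 7 of 36 members that have one (19.4%; VPS8, VPS50, VPS11, VPS37B, VPS36, VPS16 and VPS26C), against 12.1% of 11458 tested genes with a window. CGGAAG was picked after the windows had been read, so the shares that follow cannot test for a difference between these groups. All 5 genes called lower had a match, as did 19 of 30 tested members that were not called (63.3%) and 35% of tested genes. A match describes these letters only.

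To compare ESCRT, retromer and HOPS, the median over the genes of each complex was taken. The median log2 fold change was -0.16 for 24 ESCRT genes, -0.01 for 4 retromer genes and -0.02 for 6 HOPS genes, against 0.02 for all tested genes. Of the ESCRT genes 18 of 24 (75%) had a fold change below 0, as had 2 of 4 in retromer, 3 of 6 in HOPS and 46.9% of all tested genes. On single arrays, relative to each gene's control mean, the ESCRT median was -0.17, -0.08 and -0.13 on the DHT arrays, against 0.02, -0.02 and 0.04 on the control arrays. These groups did not overlap. The retromer median was 0.03, -0.10 and 0.03 with DHT, against 0.03, -0.05 and 0.02 in the controls. For HOPS it was 0.09, -0.18 and 0.11 with DHT, against 0.04, -0.02 and -0.01 in the controls. In both complexes the groups overlapped and DHT replicate 2 was the lowest array. Within ESCRT the medians were -0.36 for ESCRT-0, 0.00 for ESCRT-I, -0.26 for ESCRT-II and -0.13 for ESCRT-III. These medians are descriptions without a test, since genes of a complex share the arrays and are not replicates.

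The ESCRT median was the lowest of the 3 complexes under all 18 other settings. Among these, the other variance models and the replicate number as a block leave every fold change unchanged, so they could not alter this order. Leaving out the lowest 60% of probe sets, or choosing the probe set before the limit, gave the same 3 medians as reported. Keeping dim probe sets left the retromer and HOPS medians unchanged. The 18 settings are therefore not 18 separate checks of the order. Scaling the arrays to the 4 hybridisation spikes, whose mean signal was 1134 ± 107 with DHT and 773 ± 60.8 in the controls (SD, n = 3 each), moved the median of all tested genes to -0.45. All directions here are therefore relative to the average transcript. Relative to that shifted median, ESCRT lay at -0.24, retromer at -0.10 and HOPS at -0.07. On the spike scale 42 of the 48 members were called lower, against 52.2% of all genes. Whether that scale follows the amount of RNA per cell was not tested.

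**Figure D3:**
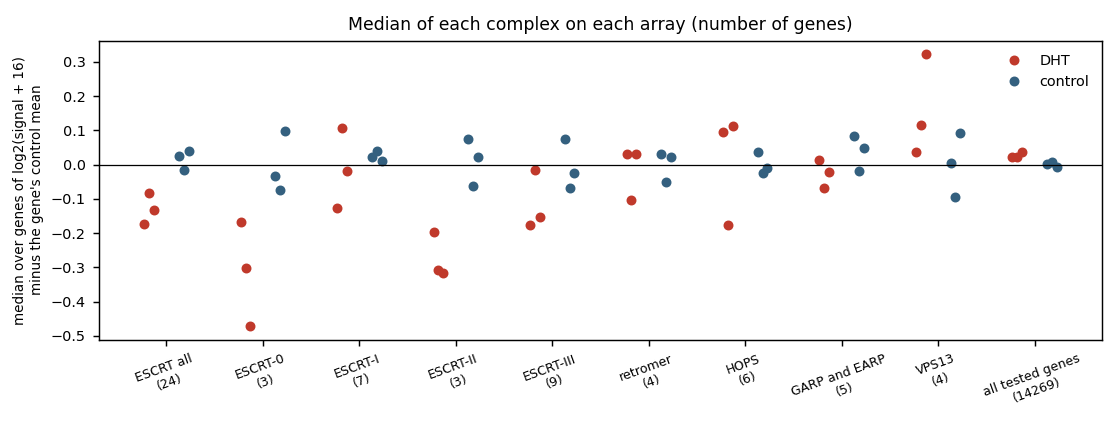
Each point is the median over the genes of a complex (number in brackets) of log2(signal + 16) minus the gene's control mean, on 1 array; DHT arrays are red and control arrays blue. The ESCRT medians with DHT lie between -0.17 and -0.08, below all 3 controls, while the retromer and HOPS points overlap.

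No retromer gene passed in limma, 0 passed at an unadjusted p under 0.05, and no 95% interval reached beyond 0.33 in size. VPS35 (222388_s_at), the scaffold, had 1151, 1098 and 1220 with DHT, against 1112, 1048 and 1122 in the controls. Its groups overlapped, at a log2 fold change of 0.08 ± 0.07 (SE), with an interval from -0.08 to 0.24. VPS26A (201807_at), which links the scaffold to sorting nexins, had 1038, 1000.4 and 965 with DHT, against 980, 926 and 962 in the controls, and its paralog VPS26B had 308, 246 and 323 with DHT, against 308, 299 and 327 in the controls. Both overlapped, at 0.07 and -0.10. VPS29 (223026_s_at), which docks regulators of the complex, had 636, 612 and 694 with DHT, against 749, 714 and 675 in the controls, and also overlapped (-0.14; adjusted p = 0.312). VPS26C of the related retriever complex had -0.16 with overlapping groups. These directions, read as signs of single genes, were not called; with spike scaling all 4 retromer genes were called lower.

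No HOPS gene passed in limma either, and at an unadjusted p under 0.05 it gave 1 higher, VPS33A, and 0 lower. VPS33A (227815_at), which binds the SNARE fusion proteins, had 98.1, 100.3 and 108 with DHT, against 74.7, 83.5 and 77.3 in the controls. The DHT arrays were all above the controls, at 0.32 ± 0.12 (adjusted p = 0.120), but its _x_at probe set had -0.05. VPS11 (203292_s_at) had 122, 96.3 and 120 with DHT, against 105, 145 and 139 in the controls, and VPS16 (203459_s_at) had 177, 148 and 177 with DHT, against 170, 154 and 161 in the controls. Both belong to the core that HOPS shares with the early endosomal complex CORVET, and both overlapped. VPS18 (223346_at), a RING-domain subunit of that core, had 143, 106 and 114 with DHT, against 128, 118 and 137 in the controls. VPS39 and VPS41 are the subunits by which HOPS holds the GTPase RAB7 or its relatives. VPS39 (212156_at) had 138, 138 and 182 with DHT, against 203, 162 and 146 in the controls, and VPS41 (210849_s_at) had 286, 268 and 342 with DHT, against 318, 274 and 231 in the controls. Both overlapped, at -0.15 and 0.12. VPS8 of CORVET had a log2 fold change of -0.02.

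Among the remaining members, VPS33B and VPS54 had the lowest fold changes and VPS13B the highest, and none passed. VPS33B (44111_at), which acts with VIPAS39 in lysosome-related organelles, had 210, 131 and 200 with DHT, against 228, 244 and 279 in the controls (-0.46 ± 0.15; adjusted p = 0.0727). Its groups did not overlap, but its other probe set (218415_at) had 0.16 with overlap. VPS54 (222627_at), a subunit of the GARP complex that receives vesicles at the trans-Golgi network, had 189, 240 and 217 with DHT, against 252, 260 and 296 in the controls (-0.30; adjusted p = 0.0926). The other subunits of GARP and the related EARP complex, VPS50 to VPS53, lay between -0.02 and 0.16 with overlapping groups. VPS13B (236254_at), a bridge-like lipid transfer protein of the Golgi, had 174, 194 and 232 with DHT, against 138, 171 and 150 in the controls (0.35; adjusted p = 0.0941). These DHT arrays were all above the controls, but averaging its 4 probe sets gave 0.098 (adjusted p = 0.661). VPS13A, VPS13C and VPS13D overlapped, at 0.05 to 0.15. Another probe set of VPS13A (214785_at, 0.31) and another of VPS13D (212326_at, 0.38) had all DHT arrays above the controls, and neither was called. The remaining tested probe sets of these genes overlapped. VPS45 (-0.01), which controls SNARE assembly on endosomes, and VPS72 (0.07) overlapped too; VPS72 matches by symbol but is a nuclear protein of histone exchange complexes.

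Probe sets of the same gene did not always move alike. Of 113 single-gene probe sets of the members 97 were tested, and 7 were called lower and 1 higher, against 10.3% of all tested probe sets called. Among 25 members with several tested probe sets, the fold changes of 7 spanned more than 0.5 (28%, against 28.1% of all such genes). CHMP4B was the widest case among the called probe sets. Its brighter probe set (225498_at) had 544, 508 and 483 with DHT, against 499, 457 and 520 in the controls, whereas its other one (225119_at) had 88.0, 98.0 and 63.4 with DHT, against 231, 187 and 180 in the controls. The first pair of groups overlapped and the second was far apart (-1.13 ± 0.15; adjusted p = 0.00086 over probe sets), so that averaging both gave -0.54 (adjusted p = 0.0082) and CHMP4B was then called lower. For STAM2 the 4 tested probe sets had -0.64, 0.07, 0.21 and -0.34, and the first alone passed. VPS35 was called higher in 217727_x_at, a probe set prone to cross-hybridisation, with 1465, 1457 and 1583 with DHT, against 1112, 1113 and 1167 in the controls (0.40). Its 3 others lay between -0.02 and 0.08, and overlapped. All 3 VPS54 probe sets had fold changes below 0 (-0.30, -0.35 and -0.49), and 233656_s_at passed (adjusted p = 0.0073 over probe sets), as did VPS54 in the mean of the 3 (-0.38; adjusted p = 0.0279). Which transcripts each probe set reads was not analysed here.

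**Figure D4:**
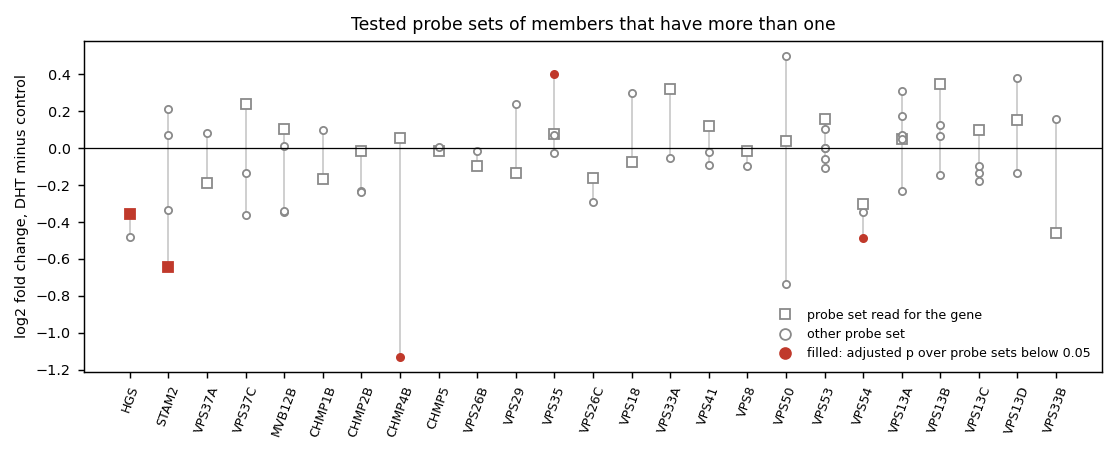
Log2 fold change (DHT minus control) of every tested probe set of the 25 members with more than 1; squares are the probe set read for the gene, circles the others, and filled symbols passed an adjusted p of 0.05 over probe sets. CHMP4B spans 0.06 to -1.13, STAM2 0.21 to -0.64, and VPS50 0.50 to -0.74, the last with no probe set that passed.

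Several families hold paralogs, some of them in the same complex and some in different ones. A difference of paralogs within an array is free of that array's scaling, apart from the pseudocount. Among all tested genes, read singly, the DHT arrays lay all below the controls for 14.1% and all above them for 16.9%. Of 19 pairs compared, some of which share a gene, 7 had DHT arrays that did not overlap the controls. Each had an exact two-sided permutation p of 0.1, the smallest possible here, and an adjusted p of 0.271 over the 19 pairs, so that none passed. STAM minus STAM2 differed by 0.75 (DHT minus control), and MVB12A minus MVB12B differed by -0.61. CHMP1A minus CHMP1B differed by -0.46 and CHMP2A minus CHMP2B by -0.39. These 4 pairs each hold 1 called member. VPS33A minus VPS33B differed by 0.78, VPS37A minus VPS37C by -0.43 and VPS26A minus VPS26C by 0.23. When each gene's probe sets were averaged, MVB12A minus MVB12B was -0.36, CHMP2A minus CHMP2B -0.25 and STAM minus STAM2 0.28 (exact p = 0.3). In that setting VPS33A minus VPS33B was 0.29 and VPS37A minus VPS37C 0.03, which turned its sign, and CHMP4B minus CHMP4C was -0.38 in place of 0.21. In VPS4, VPS13 and the other pairs the groups overlapped, which does not show that those paralogs respond alike.

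**Figure D5:**
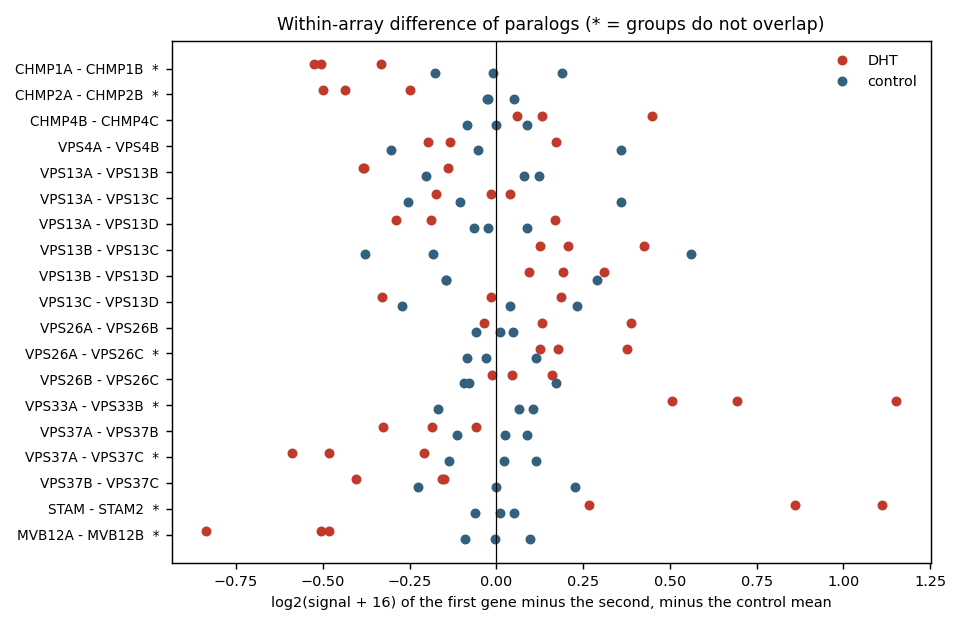
Difference of log2(signal + 16) between 2 paralogs on each array, minus its mean over the controls, with DHT above control in each row; asterisks mark the 7 pairs without overlap. The DHT points of STAM minus STAM2 and of VPS33A minus VPS33B lie to the right of all their controls, and those of MVB12A minus MVB12B to the left.

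Genes that work with these complexes, listed by their known roles, held calls in both directions, at shares to be read against 13% of all tested genes. Of 16 tested ESCRT partners 1 was higher and 1 lower (12.5% called), near that background, with a median log2 fold change of 0.00. CC2D1A, which binds CHMP4 proteins, had 151, 144 and 150 with DHT, against 236, 247 and 257 in the controls (-0.68 ± 0.09; adjusted p = 0.000818), and CEP55, which brings ESCRT to the bridge between dividing cells, had 177, 141 and 98.5 with DHT, against 82.8, 68.3 and 69.2 in the controls (0.77 ± 0.18; adjusted p = 0.0166). The groups were separate for both. Of 18 tested retromer partners 2 were higher and 2 lower (22.2% called), with a median of -0.04. WASHC4, a subunit of the actin-nucleating WASH complex that retromer recruits, had 590, 628 and 709 with DHT, against 335, 324 and 345 in the controls (0.90 ± 0.09; adjusted p = 8.65e-05). It had the highest fold change among the partners, and SNX3, a sorting nexin read from a probe set prone to cross-hybridisation, was also higher (0.25; adjusted p = 0.0424). The sorting nexin SNX1 (-0.31; adjusted p = 0.0181) and IGF2R, a receptor for mannose 6-phosphate that retromer retrieves (-0.26; adjusted p = 0.0437), were lower. Of 16 tested HOPS partners 1 was higher and 2 lower (18.8% called), with a median of 0.04. PIK3R4, the regulatory subunit of the endosomal lipid kinase complex, rose (0.40; adjusted p = 0.0158), and the SNAREs VTI1B (-0.37; adjusted p = 0.0113) and STX17 (-0.32; adjusted p = 0.0363) fell. RAB7A, the GTPase of late endosomes, had -0.03 with overlapping groups. VTA1, WASHC1, WASHC2A and SORT1 of these lists were not analysed here.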

How the data were processed

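The intensity values that the authors deposited are linear MAS5 signals, per the submitters' processing notes (no version is stated there). The method subtracts background, so dim probe sets are noisy. No further scaling was applied, and 0 columns were left unused. Control probe sets (62) and the lowest 40% by mean log2(signal + 16) were left out, which left 32768 of 54675. Genes were named from the platform annotation given with the table, where 41097 probe sets name 1 gene, 1801 several and 11777 none; 41043 matched RefSeq GRCh38.p14 by gene identifier, with 0 symbols changed. A gene was read from its brightest passing probe set, with _x_at sets used only where no other passed. Tests used limma 3.58.1 in R 4.3.3 (eBayes with trend) on log2(signal + 16), a scale that understates changes of dim genes; the median standard error was 0.14 and the residual degrees of freedom were 4. The number of arrays limits the precision. The step was tested on simulated data. Exact permutation tests ran over the 6 arrays.

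The members, complexes and partner lists were chosen with earlier results of these data known. The naming rule gave array values for called members, those of retromer and HOPS, and the brightest tested member of each complex. Of the brightest, VPS25, VPS26C, VPS8, VPS51 and VPS13C are given without array values. Other members given by array were chosen after their values were seen. Alternatives were other pseudocounts, limits, scalings, probe set rules and variance models, the replicate number as a block, and each array left out.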

Additional observations from a re-analysis of the deposited data

How the results depend on the processing

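With each array left out in turn, 3 to 5 ESCRT genes were called lower and 0 members higher, 3 without DHT replicate 3 or control replicate 3, where HGS and STAM2 did not pass. The ESCRT median then lay between -0.16 and -0.13, retromer between -0.06 and 0.04, HOPS between -0.04 and 0.06, and that of all members between -0.11 and -0.027. Over all genes 631 to 778 were then called higher and 523 to 664 lower. Limma without the intensity trend called 0 members, with 388 genes higher and 293 lower in all, against 994 and 855 with it. Quantile normalisation called 1 member higher, VPS37C of ESCRT. Equal array medians gave medians of -0.22 for ESCRT and -0.10 for all members, and 40.4% of all calls were then higher, against 53.8% on the deposited scaling. Spike scaling lowered all genes: 42 members were called lower, 22 in ESCRT, 4 in retromer and 5 in HOPS, with medians of -0.56 for all members, -0.69 for ESCRT, -0.55 for retromer and -0.51 for HOPS. It turned to lower calls CHMP4B (-0.48), STAM (-0.42), TSG101 (-0.42), VPS13A (-0.47), VPS13C (-0.44), VPS16 (-0.46), VPS26A (-0.48), VPS35 (-0.47), VPS37B (-0.50), VPS41 (-0.40), VPS50 (-0.47), VPS51 (-0.53) and VPS72 (-0.46), which were not called on the deposited scaling, as dividing the DHT arrays by their higher spikes lowers every gene. Averaging each gene's probe sets turned CHMP4B to -0.54 and gave medians of -0.061 for all members and 0.058 for retromer.

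Same-numbered cultures did not deviate together (correlations of -0.01, -0.03 and 0.00 across probe sets). The labels do not say whether the numbers pair the cultures, and these correlations cannot settle it. With the replicate block 5 members were called lower, among them VPS33B (adjusted p = 0.0487) and not HGS (adjusted p = 0.0603). Of 864 values of single members under 18 settings, 804 kept their status, which for most members was not called. A call was lost in 17 and gained in the same direction in 29, and 14 turned as above. All 17 losses fell on the 5 called members. CHMP1A, CHMP2A and MVB12A each kept their call under 17 of the 18 settings, STAM2 under 12 and HGS under 10. Apart from what is named, the cause was not tested. Of 285 paralog values 10 moved by more than the spread between arrays, all when probe sets were averaged.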
